A study of Arabidopsis thaliana with 32 samples.

Results

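*HTB2* (AT5G22880) and *HTB11* (AT3G46030) encode histone H2B, and *BUB3.1* (AT3G19590) encodes a protein of the spindle checkpoint. The 3 genes were picked by name as genes of proliferating cells, with earlier results of these data known. Every probe set that names only the gene in question was taken. Each had 1 such probe set, so the 3 probe sets stand for 3 of the 13333 genes to which a probe set naming 1 gene could be matched. All 3 passed the filter on low signal, which kept 16782 probe sets. The deposited files name no genome build, so the genes are given by locus, without coordinates.

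All plants were *Arabidopsis thaliana* of the accession Col-0, and the labels name no mutant or transgene. They grew in a growth room at 24 °C and 50% humidity under days of 16 h on Murashige and Skoog medium, and on day 16, when the lights had been on for 3 h, heat of 38 °C began. Shoots and roots were sampled at 0.25, 0.5, 1 and 3 h of heat, and at 1, 3, 9 and 21 h of recovery at 25 °C after the 3 h of heat. This gave 16 groups of 2 arrays, 32 arrays in all. Every group had been heated, so the courses are read against 0.25 h of heat and against 21 h of recovery, a day after the heat began and at the same clock hour. Clock hour and heat both change between the other times. Nothing in the labels tells if a group's 2 arrays stem from separate cultures, and the p-values therefore reflect the spread between arrays alone, possibly technical.

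H2B pairs with H2A, and 2 such pairs join H3 and H4 in the core of the nucleosome around which DNA is wrapped. A cell that copies its DNA needs new histones for the new chromatin, and much of histone synthesis takes place in S phase. *Arabidopsis* carries a family of H2B genes whose proteins are much alike. BUB3 proteins bind at kinetochores that are not yet attached to the spindle. With BUBR1 and MAD2 they restrain the anaphase-promoting complex (APC/C), the ubiquitin ligase that starts anaphase, until all chromosomes are attached. Cell division in a seedling is concentrated in the meristems and in young organs. In such bulk tissue, fewer dividing cells and less RNA per cell cannot be told apart.

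The arrays had a median signal of 31.6 to 49.0, and log2 signals of the 2 arrays of a group correlated at 0.984 to 0.993. Of the shoot markers, 4 had a probe set naming 1 gene (the rubisco activase gene *RCA* and the antenna genes *LHCB4.1*, *LHCB4.2* and *LHCB4.3*). Their summed signal was 10268 to 18950 in shoots and 162 to 1188 in roots. In roots it was 371 and 410 at 0.25 h of heat, 1027 and 1188 at 3 h of heat and 466 and 572 at 1 h of recovery, and none of the 4 was at 0. The 2 root markers *EXPA7* and *EXPA18*, expansins of root hairs, summed to 31.3 to 155 in roots and to at most 46.2 in shoots, so that their ranges overlap. What part of the members' courses moved with these markers was not tested.

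All 3 genes had low signals by 3 h of heat in both tissues. By 9 h of recovery they had regained 82.6% to 109% of their fall since 0.25 h of heat, on the log2 scale. The signals at 9 h of recovery were not tested against those at 0.25 h of heat. In the first hour of recovery *BUB3.1* rose in shoots and the histone genes did not pass there, and the step of *HTB11* differed between roots and shoots. The values on every array come first, gene by gene.

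For *HTB2*, the 2 shoot arrays at 0.25 h of heat read 210 and 172, those at 0.5 h 207 and 206, those at 1 h 67.6 and 98.1, and those at 3 h 45.8 and 37.2. Their signals after 1 h of recovery were 43.0 and 49.4, after 3 h 140 and 108, after 9 h 213 and 217, and after 21 h 184 and 175. The shoot arrays at 3 h of heat and 1 h of recovery are the lowest and overlap each other, and none of them reaches any array of another shoot group. Root arrays read 166 and 186, then 190 and 191, then 78.5 and 104, then 43.0 and 46.8 at the 4 heat times, and 64.4 and 64.3, 103 and 87.3, 179 and 219, and 212 and 233 at the 4 recovery times. The lowest root arrays are those at 3 h of heat, followed without overlap by those at 1 h of recovery.

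*HTB11* in shoots began at 232 and 236 (0.25 h of heat), read 273 and 277 on the 0.5 h arrays, 152 and 139 on the 1 h arrays, and 74.4 and 71.6 on the 3 h arrays. Its shoot arrays in recovery read 70.7 and 93.3 (1 h), 201 and 192 (3 h), 199 and 186 (9 h), and 214 and 209 (21 h). As for *HTB2*, the shoot arrays at 3 h of heat and 1 h of recovery overlap and lie below all others. In roots it read 330 and 303, 318 and 328, 201 and 223, and 98.8 and 91.7 in heat, and 170 and 171, 234 and 225, 320 and 331, and 365 and 406 in recovery. The root arrays at 1 h of recovery lie above those at 3 h of heat and below those of every other root group, and the 21 h arrays are the highest of all 32.

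*BUB3.1* in shoots read 63.8 and 65.3 (0.25 h of heat), 61.6 and 66.5 (0.5 h), 27.5 and 54.9 (1 h), and 17.5 and 17.0 (3 h). Its recovery arrays there read 48.4 and 54.5 (1 h), 83.7 and 79.5 (3 h), 62.5 and 69.5 (9 h), and 54.2 and 53.6 (21 h). The 2 shoot arrays at 1 h of heat lie far apart, and those at 1 h of recovery overlap those at 21 h. Root arrays read 70.5 and 73.2, 95.2 and 74.0, 53.8 and 64.1, and 18.4 and 9.54 in heat, and 24.6 and 26.1, 73.0 and 59.0, 64.1 and 78.5, and 69.4 and 76.4 in recovery. Here the root arrays at 1 h of recovery are still below those of every group but 3 h of heat.

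**Figure D1:**
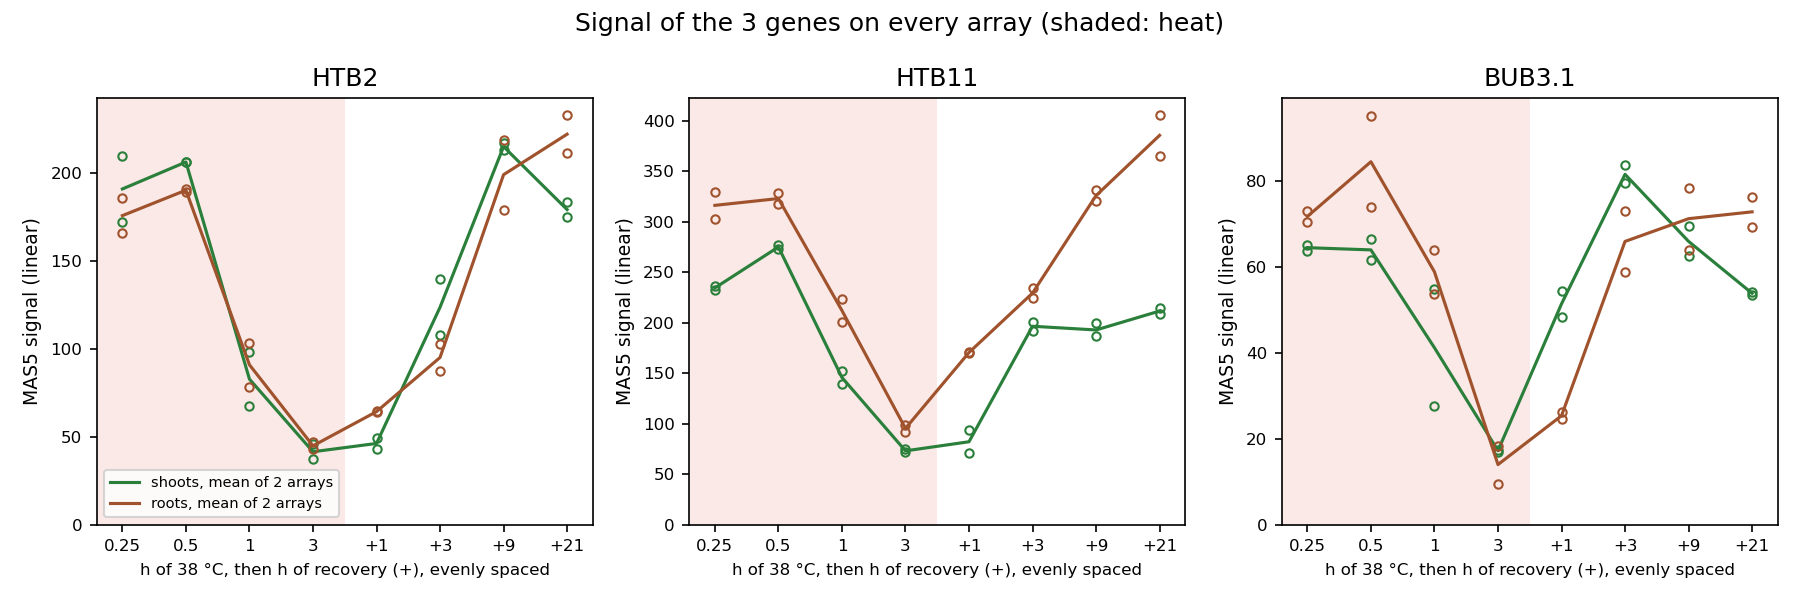
MAS5 signal (linear, from 0) of HTB2, HTB11 and BUB3.1 on each of the 32 arrays against time, with points for arrays and lines through the means of 2 arrays, shoots in green and roots in brown. All 3 genes are lowest around 3 h of heat, BUB3.1 at 9.54 to 18.4, and the HTB11 roots line ends highest, at 365 and 406.

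Ranked within an array, the genes also moved far down. *HTB2* lay between percentiles 80.7 and 85.9 of its array at 0.25 h of heat and between percentiles 52.4 and 57.2 at 3 h. For *HTB11* the ranges were 87.3 to 91.5 and 66.8 to 71.5. *BUB3.1* went from 59.7 to 62.4 down to 22.1 to 38.7, below the 40th percentile on which the filter was set. Its signal at 3 h of heat is therefore in the low range of the array, where the added constant of the log scale understates a change most.

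The heat course was tested on log2(signal + 10.7) with limma over all 32 arrays. A probe set passed where its p-value, adjusted within a comparison over all 16782 probe sets, was below 0.05. Between 0.25 and 3 h of heat *HTB2* fell by 1.95 ± 0.15 (SE) in shoots and by 1.75 in roots on this log2 scale, which is 3.86-fold and 3.36-fold. The fall of *HTB11* was −1.55 ± 0.10 in shoots and −1.62 in roots, or 2.93-fold and 3.08-fold. *BUB3.1* changed by −1.43 ± 0.18 in shoots and −1.76 in roots, or 2.69-fold and 3.39-fold. The *BUB3.1* values depended on the added constant, with −0.84 in shoots and −1.02 in roots for a constant 4 times as large, and −1.76 and −2.21 for a smaller one. The largest adjusted p of the 6 cases was 3.59e-07, for *BUB3.1* in shoots.

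These falls stand within a broad shift of the arrays. Of all probe sets tested, 33.5% were lower at 3 h than at 0.25 h in shoots and 36.8% in roots, so that passing as lower was common. The 3 genes were far out in that distribution. They were chosen with earlier results of these data known, so this place is a description only. In shoots, 0.852% of probe sets had a more negative difference than *HTB2*, 2.16% than *HTB11* and 2.97% than *BUB3.1*. In roots these shares were 1.74%, 2.30% and 1.67%. The median over all probe sets was −0.11 in shoots and −0.16 in roots.

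No fall passed in the first step sampled, and what happened before 0.25 h of heat was not measured. From 0.25 to 0.5 h none of the 3 genes passed in either tissue, in comparisons in which 11.7% of probe sets in shoots and 9.42% in roots passed in either direction. The 6 differences ran from −0.01 for *BUB3.1* in shoots to 0.22 for *HTB11* in shoots. Over the following step, from 0.5 to 1 h, *HTB2* fell by 1.23 in shoots and by 0.99 in roots, and *HTB11* fell by 0.87 and by 0.58. The background of lower calls in that step was 18.7% in shoots and 17.4% in roots. *BUB3.1* changed by −0.58 in shoots (adjusted p = 0.0216) and by −0.45 in roots (adjusted p = 0.0742, not passed). The shoot call was lost under quantile normalization (−0.41, adjusted p = 0.118) and scaling to the 75th percentile (−0.46, adjusted p = 0.0754), and without replicate 1 at 1 h of heat the value was −0.19 (adjusted p = 0.538). That array also had an actin 3′/5′ ratio of 14.9, against 4.72 on replicate 2. The same array enters the shoot values of the histone genes. On it *HTB2* read 67.6, against 98.1 on replicate 2, and *HTB11* read 152, against 139.

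From 1 to 3 h all 3 genes fell in both tissues, where 18.9% of probe sets in shoots and 21.0% in roots were called lower. In shoots the differences were −0.83 for *HTB2*, −0.90 for *HTB11* and −0.84 for *BUB3.1*. The *BUB3.1* value was −0.45 (adjusted p = 0.0583) without replicate 2 at 1 h of heat. In roots they were −0.86, −1.07 and −1.51. The *BUB3.1* difference in roots was lower than all but 0.953% of the probe sets tested. *HTB2* thus lost most of its signal between 0.5 and 1 h in shoots, whereas the larger part of the *BUB3.1* fall in roots came after 1 h. The difference between the genes in timing was not tested.

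Signals that report on the RNA preparation also moved over the course. The 25S ribosomal RNA probe set in shoots read 146 ± 47.6 (SD, n = 2) at 0.25 h of heat and 112 ± 2.47 at 0.5 h. It then read 1916 ± 180 at 1 h and 2405 ± 7.74 at 3 h. Its rise from 0.5 to 1 h fell in the step in which the 3 genes were first called lower in shoots. In shoot recovery it read 203 ± 65.8 at 1 h and 1289 ± 27.2 at 3 h, and the 9 h arrays read 1270 and 88.6. At 1 h of recovery, when it was low again, *BUB3.1* had risen in shoots and *HTB2* and *HTB11* were still low, and at 3 h, when all 3 had risen, it was higher. In roots it read 722 ± 220 at 0.25 h, 2415 ± 263 at 0.5 h, 2322 ± 152 at 1 h and 3080 ± 431 at 3 h of heat. At 1 h of recovery it read 840 ± 38.8 there. It was high both at 3 h in roots, when the 3 genes were low, and at 0.5 h, when none of them had passed as lower. The actin 3′/5′ ratio was 3.68 to 5.81 at 0.25 h and 13.2 to 14.1 at 3 h of heat in shoots, and 10.4 to 11.6 and 16.9 to 21.9 in roots. Its mean in shoots was 4.84 at 0.5 h and 9.81 at 1 h of heat, then 7.23 at 1 h and 8.71 at 3 h of recovery. The root means at these times were 14.9, 20.4, 10.0 and 13.5. The part of either measure in the falls and rises was not tested.

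**Figure D2:**
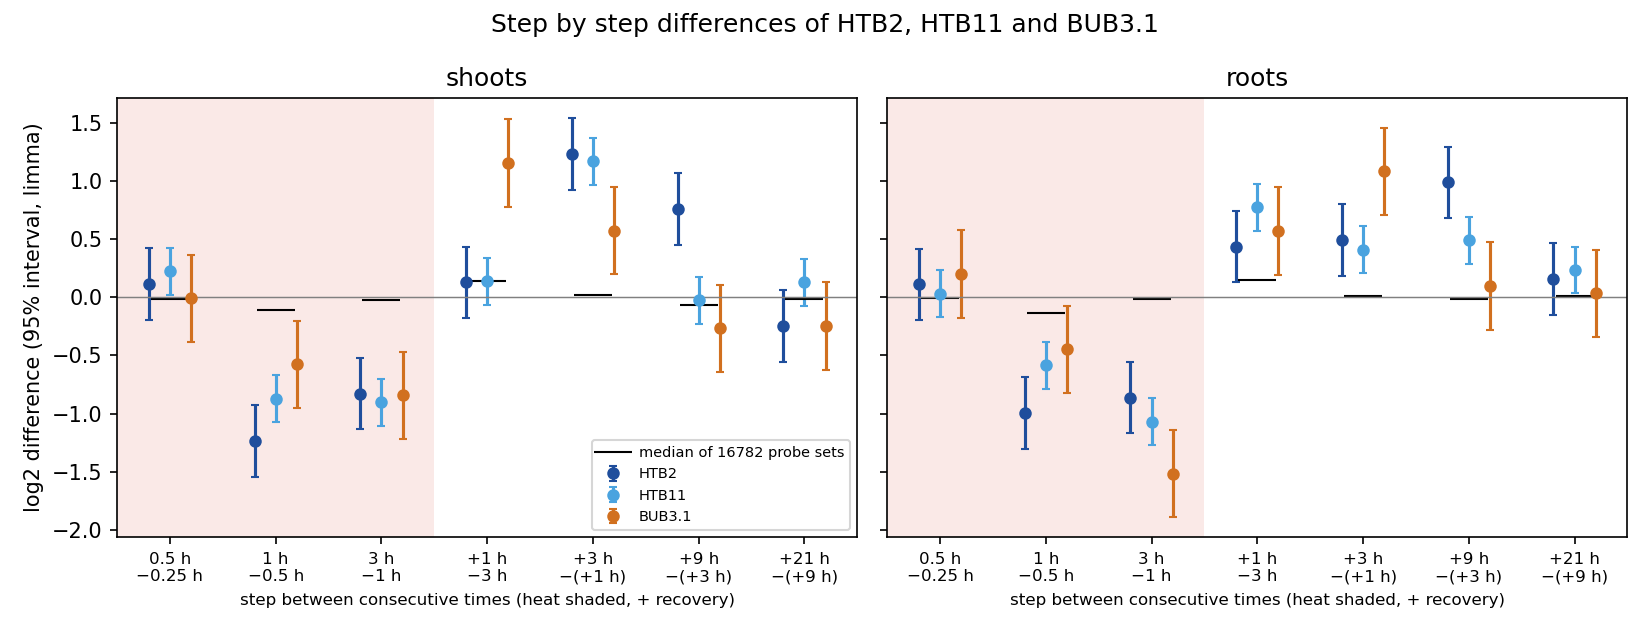
Log2 difference between consecutive times, with its 95% interval from limma, for HTB2, HTB11 and BUB3.1 in shoots (left) and roots (right), with a dash at the median of all 16782 probe sets. The steps into 1 h and 3 h of heat lie below 0 for all 3 genes, and in the step to 1 h of recovery BUB3.1 in shoots stands at 1.15 while HTB2 and HTB11 stand at 0.13 and 0.14.

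In shoots *BUB3.1* rose in the first hour of recovery, and neither histone gene passed. In that first hour at 25 °C, *BUB3.1* rose by 1.15 ± 0.18 there (2.22-fold, adjusted p = 1.01e-05), or by 0.65 to 1.44 with the other constants. *HTB2* differed by 0.13 ± 0.15 (95% interval −0.18 to 0.43, adjusted p = 0.502) and *HTB11* by 0.14 ± 0.10 (−0.06 to 0.34, adjusted p = 0.253), and neither passed. Over all probe sets 35.3% rose in this step, and the median was 0.14, so the 2 histone values sat in the middle of the distribution. The *HTB11* value depended on replicate 1 at 1 h of recovery, without which it was 0.31 (adjusted p = 0.015). The difference between *BUB3.1* and the histone genes was itself not tested.

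In roots all 3 genes passed as higher in the first hour, beside a background of 33.6%. *HTB11* rose by 0.77 ± 0.10 (1.71-fold, adjusted p = 6.00e-07), *BUB3.1* by 0.57 ± 0.18 (adjusted p = 0.0117) and *HTB2* by 0.43 ± 0.15 (adjusted p = 0.0182). The *HTB2* call was lost under quantile normalization (0.22, adjusted p = 0.239) and under scaling to the 75th percentile (0.29, adjusted p = 0.109), and without 3 of its 4 arrays, each taken alone. That of *BUB3.1* was lost without replicate 2 at 3 h of heat, which read 9.54 (0.31, adjusted p = 0.249), and without replicate 2 at 1 h of recovery (0.54, adjusted p = 0.0649). *HTB11* kept its call under every alternative but one, the rule that a difference must also reach 1 in size.

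The rise of the histone genes in shoots came in the next step. From 1 to 3 h of recovery *HTB2* rose by 1.23 and *HTB11* by 1.17, while *BUB3.1* rose by 0.57 (adjusted p = 0.0152), a call lost without replicate 1 at 1 h (0.50, adjusted p = 0.0988) or replicate 1 at 3 h (0.54, adjusted p = 0.08). Of all probe sets 19.2% were higher in this step in shoots, with a median of 0.02. In roots *BUB3.1* had the largest of the 3 values, up by 1.08, with *HTB2* up by 0.49 and *HTB11* by 0.41, beside 19.0% of all probe sets. Without replicate 1 at 3 h the *HTB2* value in roots was 0.38 (adjusted p = 0.132), and it did not pass without either array at 1 h. From 3 to 9 h, *HTB2* rose in shoots by 0.76 and in roots by 0.99, and *HTB11* rose in roots by 0.49. *HTB11* in shoots (−0.03) and *BUB3.1* in both tissues (−0.27 and 0.10) did not pass. The backgrounds of higher calls in that step were 15.3% in shoots and 12.7% in roots. None of the 3 genes passed from 9 to 21 h in either tissue, in comparisons in which 27.8% of all probe sets in shoots and 10.2% in roots did.

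Expressed as the share of the heat fall regained on the log2 scale, with 0.25 h of heat as 100%, the courses can be read side by side. These shares use the same arrays at 0.25 h and 3 h of heat for every time, so they are not independent of each other. The 1 h shares of *HTB2* are imprecise, as are those of *HTB11* in shoots and *BUB3.1* in roots. For *HTB2* in shoots the difference behind the share was 0.0092 to 0.25 without 1 array and −0.091 after quantile normalization. For *HTB2* in roots it was 0.22 after that normalization in place of 0.43. Without 1 array the difference was −0.039 to 0.31 for *HTB11* in shoots and 0.31 to 0.83 for *BUB3.1* in roots. In shoots *HTB2* had regained 6.55% at 1 h, 69.7% at 3 h and 109% at 9 h. *HTB11* stood at 8.85%, 84.3% and 82.6%, and *BUB3.1* at 80.6%, 121% and 102%. In roots *HTB2* had regained 24.8%, 53.0% and 109%, *HTB11* 47.6%, 72.6% and 103%, and *BUB3.1* 32.3%, 93.7% and 99.2%. By these shares *BUB3.1* was the furthest along of the 3 at 1 h in shoots and at 3 h in both tissues, and *HTB11* at 1 h in roots. This order was not tested.

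Read against 21 h of recovery, the same arrays give a second view of where each gene stood. At 0.25 h of heat none of the 3 genes differed from it by the test in either tissue. Only 5.07% of probe sets in shoots and 4.39% in roots passed there. The *HTB11* difference in roots was −0.28 and that of *HTB2* −0.32, with adjusted p-values of 0.113 and 0.249. At 0.5 h *HTB11* in shoots was higher, by 0.36 (adjusted p = 0.0105), and no other of the 6 values passed, where 18.7% and 13.5% of all probe sets did. The *HTB11* value was 0.35 (adjusted p = 0.0636) without replicate 2 at 0.5 h and 0.35 (0.0691) without replicate 2 at 21 h.

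At 1 h of heat *HTB2* was lower than at 21 h of recovery by −1.04 in shoots and −1.21 in roots, and *HTB11* by −0.51 and −0.83, beside 25.4% and 27.6% of probe sets called lower. *BUB3.1* differed by −0.37 and −0.27 and did not pass, and without 1 array at 1 h of heat the shoot value was −0.76 (adjusted p = 0.00176, replicate 2 left out) or 0.022 (adjusted p = 0.949, replicate 1 left out). At 3 h of heat all 3 were lower in both tissues, where 33.5% and 37.9% of all probe sets were. The largest difference was that of *HTB2* in roots (−2.07, 4.19-fold). At 1 h of recovery *HTB2* (−1.74 and −1.63) and *HTB11* (−1.27 and −1.13) were also lower than at 21 h in both tissues, beside backgrounds of 19.4% and 19.9%. *BUB3.1* was lower in roots (−1.21, adjusted p = 9.76e-06) and did not pass in shoots (−0.06, 95% interval −0.43 to 0.32, adjusted p = 0.831).

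After 3 h of recovery *HTB2* was lower than at 21 h in shoots (−0.51, adjusted p = 0.00737) and in roots (−1.14). *HTB11* was lower in roots (−0.72) and did not pass in shoots (−0.10, adjusted p = 0.435). The share of all probe sets lower there was 17.3% in shoots and 11.9% in roots. *BUB3.1* in shoots was higher than at 21 h by 0.51 (adjusted p = 0.0248), as 25.0% of all probe sets were. That call was lost under quantile normalization (0.38, adjusted p = 0.109), under scaling to the 75th percentile (0.42, adjusted p = 0.0657), and without any 1 of its 4 arrays (0.48 to 0.55). The *HTB2* call in shoots was lost without replicate 2 at 3 h (−0.34, adjusted p = 0.152) and without replicate 1 at 21 h (−0.48, adjusted p = 0.0531).

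Roots and shoots were then compared at each time. Most genes differ between these organs: 75.2% of probe sets passed at 0.25 h of heat, 74.0% at 0.5 h, 73.0% at 1 h and 72.1% at 3 h. In recovery the shares were 71.8% at 1 h, 71.8% at 3 h, 74.8% at 9 h and 76.2% at 21 h. The median difference over all probe sets was 0.20 to 0.34 in favour of roots at the 8 times, and 0.11 to 0.18 after quantile normalization and 0.096 to 0.19 after scaling to the 75th percentile.

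*HTB11* passed as higher in roots at 7 of the 8 times, where 44.4% to 50.9% of all probe sets did at each time. The difference was largest at 1 h of recovery (0.98 ± 0.10, 1.97-fold, adjusted p = 2.25e-09), followed by 21 h (0.83) and 9 h (0.73). At 3 h of recovery it was 0.21 (adjusted p = 0.0549). The calls at 0.5 h of heat (0.22) and 3 h of heat (0.34) did not hold under all scalings, with 0.09 (adjusted p = 0.449) after scaling to the 75th percentile and 0.20 (adjusted p = 0.0836) after quantile normalization. The 0.5 h call was also lost without any 1 of its 4 arrays. Read against all probe sets, 80.2% had a lower value than *HTB11* at 1 h of recovery, 72.5% at 21 h and 69.7% at 9 h. At 0.25 and 3 h of heat these shares were 54.8% and 55.7%, near the middle of the distribution.

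*HTB2* passed at fewer times. It was higher in roots at 1 h of recovery (0.40, adjusted p = 0.019), lower in roots at 3 h (−0.34, adjusted p = 0.0451), and did not pass at the other 6 times. The first of these calls was lost under quantile normalization (0.24), scaling to the 75th percentile (0.29), and without replicate 1 of shoots (0.32) or either array of roots. The second was −0.46 (adjusted p = 0.00701) after quantile normalization and −0.43 (adjusted p = 0.0119) after scaling to the 75th percentile. It was lost with a smaller added constant, without the filter, without the trend in the variance, and without replicate 1 of shoots (−0.17) or replicate 2 of roots (−0.23). *BUB3.1* was lower in roots at 1 h of recovery (−0.78 ± 0.18, 1.72-fold, adjusted p = 0.000469), against a median of all probe sets of 0.20 in the other direction. It was higher in roots at 1 h of heat (0.47, adjusted p = 0.0234), although the arrays overlap. That value did not pass under quantile normalization (0.26) or scaling to the 75th percentile (0.33), and was 0.08 without replicate 1 of the shoots. At the other 6 times *BUB3.1* did not pass, but after quantile normalization it was lower in roots at 3 h of heat (−0.43, adjusted p = 0.0371) and at 3 h of recovery (−0.43, adjusted p = 0.039).

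**Figure D3:**
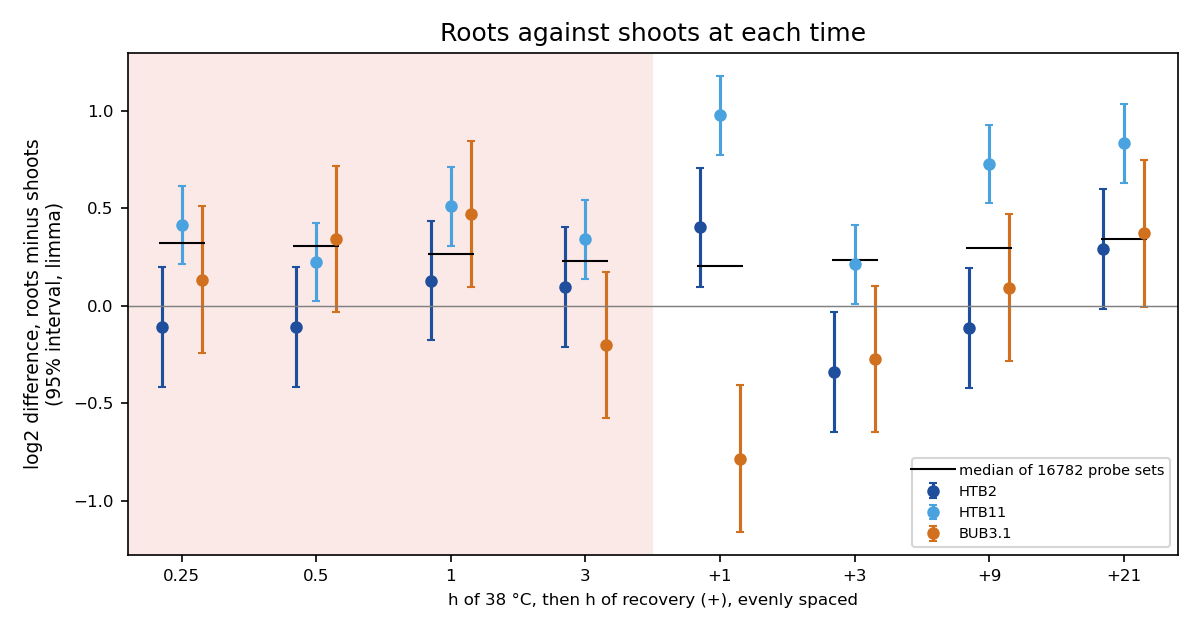
Log2 difference of roots minus shoots at each of the 8 times, with its 95% interval from limma, for the 3 genes, with a dash at the median of all 16782 probe sets. At 1 h of recovery HTB11 stands at 0.98 and BUB3.1 at −0.78, and by 3 h the 3 genes lie between −0.34 and 0.21.

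The test of the difference between tissues in a step gave a narrower picture. In the fall from 0.25 to 3 h of heat, roots minus shoots was 0.20 ± 0.21 for *HTB2*, −0.07 ± 0.14 for *HTB11* and −0.33 ± 0.26 for *BUB3.1*. None passed, in a comparison in which 33.7% of all probe sets did. Their 95% intervals reached from −0.23 to 0.64, from −0.36 to 0.21 and from −0.86 to 0.20. In the first hour of recovery the *HTB11* rise was larger in roots by 0.64 ± 0.14 (adjusted p = 0.00137), beside 27.0% of all probe sets passing. The value of *HTB2* was 0.31 (adjusted p = 0.301). For *BUB3.1* it was −0.58 ± 0.26 (95% interval −1.11 to −0.05, adjusted p = 0.0979), so that the smaller root rise did not pass. Leaving out roots replicate 2 at 3 h of heat gave −0.84 (adjusted p = 0.0258). Between 3 h of heat and 21 h of recovery the tissues differed for *HTB11* alone of the 3 (−0.49 ± 0.14, adjusted p = 0.00664), where 38.2% of all probe sets passed. *HTB2* stood at −0.20 and *BUB3.1* at −0.57 (adjusted p = 0.083), the latter −0.83 (adjusted p = 0.0197) when roots replicate 1 at 3 h of heat was left out.

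Put in order by mean signal over the 16 groups, *HTB2* and *HTB11* had the same top group and *BUB3.1* another. *HTB2* was highest in roots at 21 h of recovery (222 ± 15.3, SD, n = 2) and lowest in shoots at 3 h of heat (41.5 ± 6.06). The 3 lowest groups of *HTB2*, shoots at 1 h of recovery and both tissues at 3 h of heat, each overlap the neighbour in the order. *HTB11* ran from 385 ± 28.6 in roots at 21 h, clear of the next group, down to 73.0 ± 2.04 in shoots at 3 h of heat. Root groups filled the top 4 places of its order, and the 3 lowest groups were the same as for *HTB2* and overlapped too. *BUB3.1* ran from a mean of 84.6 in roots at 0.5 h of heat, with arrays at 95.2 and 74.0, to 14.0 ± 6.29 in roots at 3 h of heat. Its order was the least sharp: from roots at 21 h of recovery, the third, down to shoots at 1 h of heat, the thirteenth, each group overlapped the next one.

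The H2B family was then set beside *HTB2* and *HTB11*. Of 11 H2B genes on the list, 10 had a probe set naming 1 gene, and 7 passed the filter, *HTB2* and *HTB11* among them. The loci AT1G08170, AT3G53650 and AT5G02570 were removed by the filter. A probe set naming 1 gene may still bind transcripts of a close relative, which was not tested here. Between 0.25 and 3 h of heat 3 of the 7 fell in shoots and 1 rose, with a median of −0.36. In roots 5 fell and 1 rose, with a median of −1.49. Over all probe sets 33.5% were lower and 20.3% higher in shoots, and 36.8% lower and 19.0% higher in roots, so the shoot count is near the background. Since *HTB2* and *HTB11* are in these counts, the other 5 genes hold the new values.

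*HTB1* read 184 and 175 in shoots at 0.25 h of heat and 72.8 and 92.1 at 3 h, and 215 and 186 against 55.5 and 45.5 in roots. It fell by 1.04 in shoots (adjusted p = 2.38e-07) and by 1.79 in roots (adjusted p = 2.05e-11). *HTB4* did not pass as lower in either tissue. Its root arrays read 554 and 550 at 0.25 h of heat and 640 and 741 at 3 h, a rise of 0.31 (adjusted p = 0.00414) that did not pass after quantile normalization (0.15). Shoot arrays of *HTB4* read 601 and 581 against 539 and 537, a difference of −0.13 (adjusted p = 0.217). In the first hour of recovery, when *HTB11* rose in roots, *HTB4* fell by 0.36 in shoots and by 0.60 in roots, under all 3 scalings, beside backgrounds of lower calls of 16.8% and 16.0%.

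The other 3 genes are known to the tables used only by locus, and stand on the H2B list from general knowledge. AT2G37470 fell in roots by 1.49, from 98.1 and 88.0 to 29.1 and 23.3. In shoots its arrays read 122 and 116 at 0.25 h of heat, 36.9 and 72.1 at 1 h and 77.8 and 105 at 3 h, so that 3 h against 0.25 h gave −0.36 (adjusted p = 0.0785). AT2G28720 fell in roots by 0.62 and differed by 0.06 in shoots, where it read 72.4 and 65.9 at 0.25 h of heat and peaked at 283 and 305 at 3 h of recovery. AT3G09480 rose in shoots by 0.60 (adjusted p = 0.04), from a low signal of 6.07 and 10.7 to at most 18.3, and differed by 0.30 in roots. In roots *HTB1* and AT2G37470 had differences at 3 h of heat close to those of *HTB2* and *HTB11*, while in shoots the 7 genes spread from −1.95 to 0.60.

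**Figure D4:**
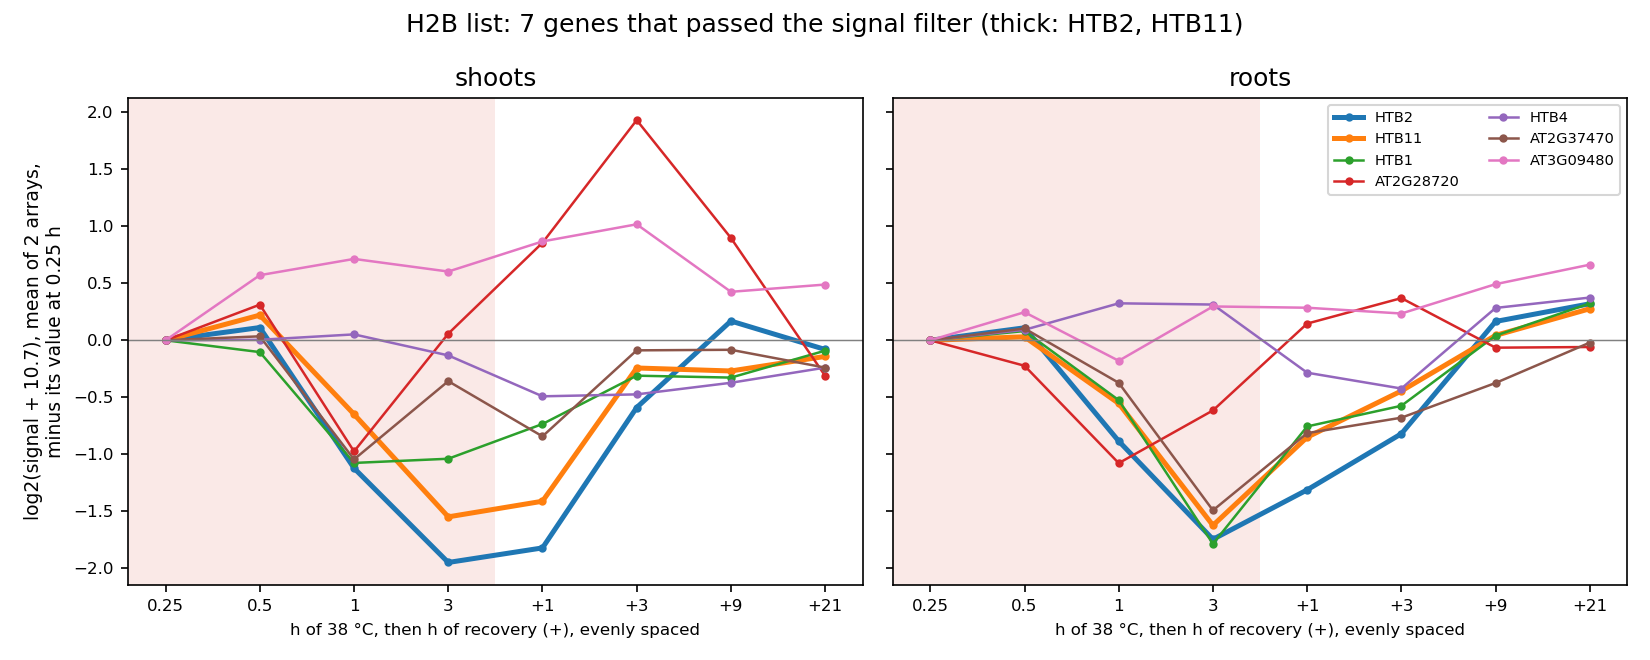
Mean log2(signal + 10.7) of 2 arrays minus the value at 0.25 h of heat, for the 7 genes of the H2B list that passed the filter, in shoots (left) and roots (right), with HTB2 and HTB11 as thick lines. In roots HTB1, HTB2, HTB11 and AT2G37470 lie between −1.79 and −1.49 at 3 h of heat, while HTB4 stands at 0.31.

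Of the 33 other histone genes listed, 4 had a probe set naming 1 gene, and all 4 passed the filter. Between 0.25 and 3 h of heat 3 of them fell in shoots (median −0.89) and 3 in roots (median −1.06), beside 33.5% and 36.8% of all probe sets. AT1G06760, listed as a linker histone from general knowledge, fell by 2.46 in shoots, from 471 and 420 to 75.3 and 68.7, and it fell in roots from 819 and 757 to 284 and 259 (adjusted p = 8.02e-11). *HTR12*, the centromeric variant of H3, fell by 0.57 in shoots and by 0.61 in roots. *HIS1-3*, a linker histone, fell by 1.94 in roots and differed by −0.45 in shoots (adjusted p = 0.0579). AT2G30620, also listed as a linker histone, fell in shoots from 339 and 352 to 161 and 128 (adjusted p = 1.06e-06) and did not pass in roots, with 420 and 430 against 437 and 412. AT1G06760 rose by 2.17 in shoots and by 1.52 in roots in the first hour of recovery, when *HTB2* and *HTB11* did not pass in shoots. *HTR12* differed by 0.05 and 0.08 in that hour and did not pass.

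Few genes that handle histones rather than encode them could be read. Of 18 listed histone chaperones and enzymes of H2B ubiquitination, 3 had a probe set naming 1 gene. These were *ASF1B* and *SGA2* (also called ASF1A), chaperones of H3 and H4, and *UBP26*, which removes ubiquitin from H2B. None of the 3 passed between 0.25 and 3 h of heat in either tissue, where 53.9% of all probe sets in shoots and 55.8% in roots passed. The *UBP26* difference in roots was 0.34 (adjusted p = 0.0505), and it passed as higher after quantile normalization (0.61) and scaling to the 75th percentile (0.44). *ASF1B* fell in roots in the first hour of recovery, by 0.46 (adjusted p = 0.0282).

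*BUB3.1* stands on a list of 25 genes of the spindle checkpoint and the APC/C, of which 5 had a probe set naming 1 gene, and all 5 passed the filter. Between 0.25 and 3 h of heat 4 of the 5 fell in shoots (median −0.83) and 4 in roots (median −1.06), beside 33.5% and 36.8% of all probe sets. *BUB3.1* is itself in these counts and medians. Both counts of falls were smaller after quantile normalization, where *HBT* in shoots (−0.25) and *BUB3.2* in roots (−0.38) did not pass. In the first hour of recovery 5 of 5 rose in shoots (median 0.98), and the same count was found after both other scalings. In roots 3 of 5 rose (median 0.57). Over all probe sets 35.3% rose in that hour in shoots and 33.6% in roots, with medians of 0.14 and 0.15.

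*BUBR1*, a checkpoint partner of BUB3, read 32.3 and 26.8 in roots at 0.25 h of heat, 41.5 and 40.8 at 1 h, at most 2.61 on both arrays at 3 h and 10.3 and 13.4 at 1 h of recovery. It fell by 1.60 in roots over the 3 h of heat and by 0.89 in shoots, and rose by 0.76 in each tissue in the first hour of recovery. In shoots its signal was low throughout, 14.8 to 15.4 at 0.25 h and 1.92 to 4.64 at 3 h. *HBT*, a CDC27 subunit of the APC/C, read 89.7 and 91.6 in roots at 0.25 h and 35.0 and 41.1 at 3 h. It fell by 1.06 there and by 0.38 in shoots, the latter lost under quantile normalization (−0.25). *HBT* rose in the first hour of recovery by 0.66 in shoots and by 0.88 in roots.

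*CDC27a*, the other CDC27 gene, fell by 0.83 in shoots and differed by −0.14 in roots, and in the first hour of recovery it rose by 1.15 in shoots. *BUB3.2*, the closest relative of *BUB3.1* on the list, read 29.9 and 28.5 in roots at 0.25 h of heat and 17.9 and 14.8 at 3 h, a fall of 0.56 (adjusted p = 0.0493) that did not pass under quantile normalization (−0.38) or scaling to the 75th percentile (−0.47). Its shoot signal was 6.84 and 19.3 against 13.5 and 3.37, a difference of −0.31 (adjusted p = 0.285). At such signals the 2 arrays of a group scatter widely. *BUB3.2* rose in shoots by 0.98 in the first hour of recovery (adjusted p = 0.00127), from these to 22.6 and 29.3.

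**Figure D5:**
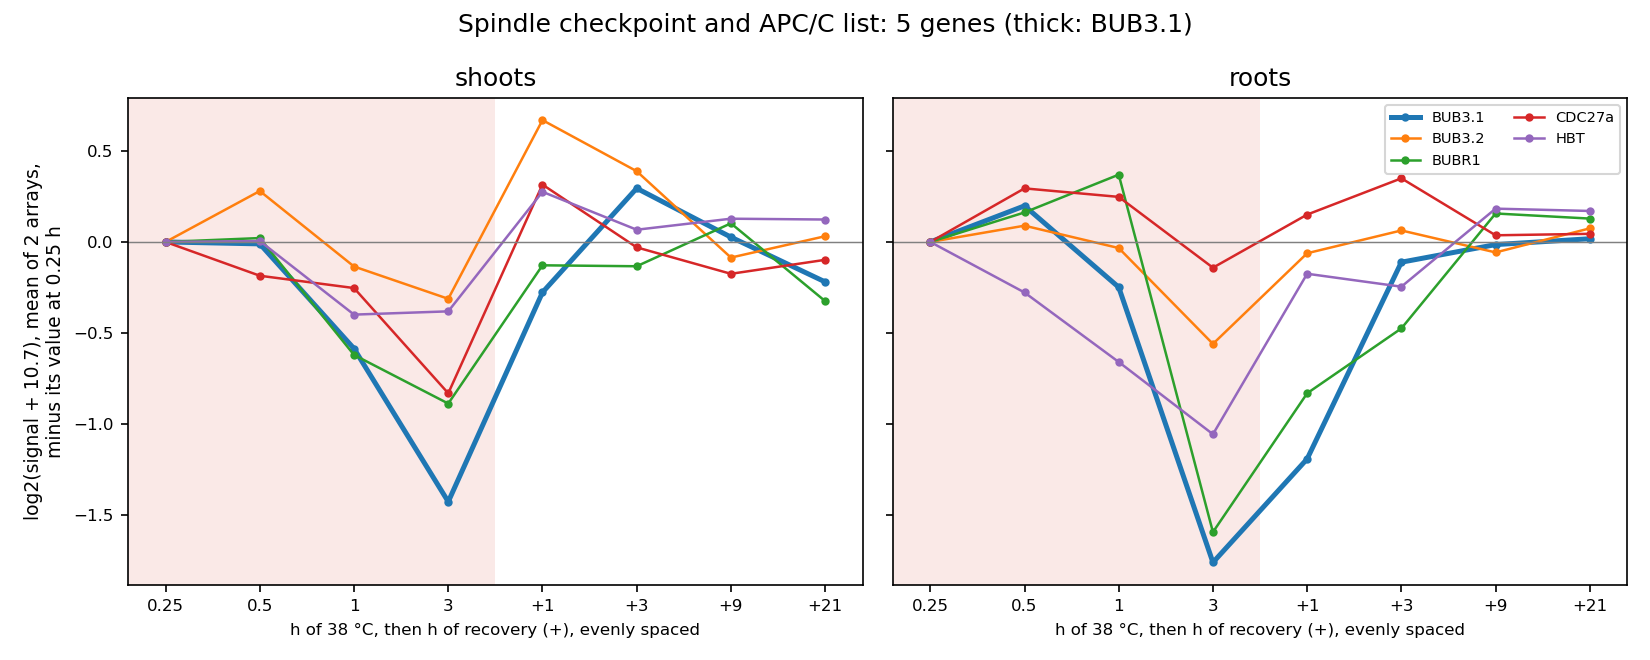
Mean log2(signal + 10.7) of 2 arrays minus the value at 0.25 h of heat, for the 5 genes of the spindle checkpoint and APC/C list, in shoots (left) and roots (right), with BUB3.1 as a thick line. BUB3.1 has the lowest point at 3 h of heat in both panels, −1.43 and −1.76, and BUBR1 in roots is next at −1.60, a value held down by the added constant of 10.7, since its signal there was at most 2.61.

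Of 32 listed genes of mitotic cyclins, kinases and division, 3 had a probe set naming 1 gene, the Aurora kinases *AUR1*, *AUR2* and *AUR3*. *AUR1* and *AUR2*, which act on the spindle and in cytokinesis, fell in both tissues over the heat, *AUR1* by 0.72 in shoots and 0.87 in roots, *AUR2* by 0.72 and 0.62. *AUR3*, which acts at centromeres, differed by −0.11 and −0.07 and did not pass. None of the 3 rose in the first hour of recovery in either tissue, and *AUR2* fell further in roots, by 0.40 (adjusted p = 0.0223). *AUR1* in roots (−0.25) passed as lower after quantile normalization (−0.47) and scaling to the 75th percentile (−0.39). Of 40 listed genes of G1/S control and DNA replication, 4 had a probe set naming 1 gene. *PRL*, the MCM7 subunit of the replicative helicase, fell by 1.44 in shoots and by 0.64 in roots. *ICU2*, the catalytic subunit of DNA polymerase alpha, fell by 0.85 and by 0.80. *SIM*, an inhibitor of cyclin-dependent kinases, fell by 0.50 in shoots and differed by −0.03 in roots. AT5G26680, known to the tables only by locus, did not pass in either tissue (−0.32 and −0.16). In shoots all 4 rose in the first hour of recovery (median 0.69), *PRL* by 0.88 and AT5G26680 by 0.75, and in roots none of the 4 passed (median 0.08). The shares of all probe sets that rose were 35.3% and 33.6%, with medians of 0.14 and 0.15.

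The 3 genes were also compared with all others by the Pearson correlation of the 16 group means of log2 signal, over 9237 other probe sets naming 1 gene. The points share arrays, scaling and the same order of times, so the values are a description. *HTB2* was most like AT1G19330 (0.955), *GH9C2* (0.952), AT3G56370 (0.951), AT2G05920 (0.930) and AT1G24575 (0.927). *GH9C2* is named as a glycosyl hydrolase, and its difference over the heat was −2.46 in shoots and −2.54 in roots. By Spearman's correlation AT1G19330 stayed the first for *HTB2* (0.924), while *GH9C2* dropped to 0.803.

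*HTB11* was most like *ZW9* (0.935), AT2G36200 (0.932), AT5G35180 (0.931), AT5G15910 (0.928) and AT5G38690 (0.925). *BUB3.1* was most like AT4G03100 (0.957), AT5G01910 (0.951), AT5G62550 (0.944), AT4G15830 (0.944) and AT5G55520 (0.942). By Spearman's correlation the genes named for *HTB11* ranked from 4 (AT5G35180) to 67 (AT5G38690), with *ZW9* at 41. Those named for *BUB3.1* ranked from 6 (AT5G55520) to 48.5 (AT4G03100 and AT5G62550). The 3 lists share no gene, but each holds only 5 of 9237 probe sets, so little can be read from that. Between themselves, *HTB2* and *HTB11* correlated at 0.886, *HTB2* and *BUB3.1* at 0.795 and *HTB11* and *BUB3.1* at 0.776. Among the likenesses of *HTB2* that of *HTB11* ranked 14, and among those of *HTB11* that of *HTB2* ranked 31. *HTB1* stood at 0.869 with *HTB2*, 0.887 with *HTB11* and 0.847 with *BUB3.1*. Other H2B genes were less alike: with *HTB2*, AT2G37470 stood at 0.701, *HTB4* at 0.208, AT2G28720 at 0.125 and AT3G09480 at −0.126.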

How the data were processed

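Expression was measured on 32 one-colour arrays, 2 for each of 16 groups of tissue and time. The authors deposited a linear signal computed with MAS5, per the submitters' processing notes; its version is not given in the sources used here. Each array's 2% trimmed mean was near 100, as read from the values. The number of arrays limits the precision.

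Of 22810 probe sets, 64 controls were left out, which left 22746. Gene names came from the platform's annotation table and the RefSeq gene table of TAIR10.1: 13513 probe sets name 1 gene, 503 name several and 8730 are unnamed here, and 13484 matched a locus.

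Signals were taken as log2(signal + 10.7), with the 25th percentile of a typical array (the median of all 32) as the constant. The filter kept probe sets that exceeded percentile 40 of the array on both replicates of any group (16782, of which 9238 name 1 gene; 5964 were removed). With limma 3.58.1 in R 4.3.3, 16 group means were fitted (lmFit, eBayes with a trend, 16 residual and 8.24 prior degrees of freedom), with 39 contrasts and Benjamini-Hochberg adjustment within each. Differences are on this log2 scale, which understates changes of low signals. The code of the fit was checked on simulated data with independent noise and few changed probe sets, unlike the broad shift here. Tables and figures used Python 3.11.15, pandas 2.3.3, numpy 2.4.6 and matplotlib 3.10.9.

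The members, lists and tests were chosen with earlier results of these data known. Named genes are the 3 members, up to 4 genes per list, by size of difference between 0.25 and 3 h of heat in each tissue, all listed genes where 4 or fewer were measured, and for each member the 5 genes most like it by Pearson correlation. HTB4 and AT2G28720 were chosen after their values were seen, to complete the H2B list. Of 159 listed genes, 29 had a probe set naming 1 gene and 26 were kept. Alternatives were another constant, no filter, quantile normalization, scaling to the 75th percentile, the replicate number as a block, no trend, a size threshold of 1, and leaving out each array.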

Additional observations from a re-analysis of the deposited data

Results flagged for a closer look

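*HTB11* differed between roots and shoots in 2 of the comparisons tested, by the test of the difference itself. In the step from 3 h of heat to 1 h of recovery, roots minus shoots was 0.64 ± 0.14 (SE, limma adjusted p = 0.00137): *HTB11* rose by 0.77 in roots, with arrays at 98.8 and 91.7 going to 170 and 171, and differed by 0.14 in shoots, with 74.4 and 71.6 going to 70.7 and 93.3. In 3 h of heat against 21 h of recovery it was −0.49 ± 0.14 (limma adjusted p = 0.00664), with −1.90 in roots and −1.41 in shoots. Both comparisons use the same arrays at 3 h of heat. *HTB2* and *BUB3.1* passed in neither. Such calls were common: 27.0% of all probe sets passed in the comparison with 1 h of recovery and 38.2% in that with 21 h.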

How the results depend on the processing

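The falls of the 3 genes from 0.25 to 3 h of heat kept direction and call in both tissues under every alternative run. Differences between tissues in that fall passed under none. In the first hour of recovery, *HTB2* in roots (0.43) was 0.22 after quantile normalization and 0.29 after scaling to the 75th percentile, neither of which passed, and 0.38 to 0.48 without 1 array. *BUB3.1* in roots was 0.31 to 0.83 without 1 array, and its difference between tissues −0.84 to −0.32. *HTB11* in shoots was −0.039 to 0.31 without 1 array. The rule that a difference must also reach 1 removed the calls of *HTB2* (0.43), *HTB11* (0.77) and *BUB3.1* (0.57) in roots and of the *HTB11* difference between tissues (0.64). Of 1440 member values under alternatives, 37 changed sign, all between −0.11 and 0.06 and none passing before or after. With an added constant 4 times as large, 5 further member values passed: *BUB3.1* in roots from 0.5 to 1 h of heat, and 4 differences between tissues. Fewer arrays enter each fit without 1 array; otherwise the cause was not tested.

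The replicate numbers did not pair the arrays: over 120 pairs of groups the deviations of equal numbers correlated at −0.19 to 0.16 (median 0.004), and over 0.1 in 3. The fit with the replicate block changed 0 calls, keeping 117 of 117 member values, with *HTB2* in shoots at −1.95 from 0.25 to 3 h of heat.

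Counts of probe sets passing moved by over 1.5 times only under the size rule, from 9042 to 2399 in shoots and 9371 to 2555 in roots for 3 h against 0.25 h of heat, and from 8748 to 1949 and 8319 to 1524 for the first hour of recovery. The share of higher calls moved by over 10 points under quantile normalization or scaling to the 75th percentile for 1 h against 0.5 h of heat (shoots 27.3% to 42.5% or 53.4%, roots 29.2% to 46.1% or 51.4%), the first hour of recovery (67.8% to 56.5% or 53.9%, 67.7% to 56.6% or 51.1%) and 3 h against 0.25 h in roots (34.1% to 44.4% or 44.1%). The same held in roots when 1 h of heat was set against 21 h of recovery (30.7% to 41.1% or 46.3%), and after scaling to the 75th percentile alone for that comparison in shoots (34.4% to 49.4%) and for 3 h against 21 h of recovery in shoots (59.1% to 47.2%). *BUB3.1* at 3 h of heat lies below the 40th percentile of its arrays, which limits how well its fold is known.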
